A study of Mus musculus with 82 samples.

Results

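Granuloma of BALB/c mice prone to plasma cell tumors was measured in 2 studies. Serpini1, Osbpl1a, Ttc8, Nbea and Ly6d are 5 genes whose RNA was higher there on day 104 or 105 after pristane than on day 7. The exceptions were Osbpl1a and Ttc8 in undissected tissue of study 1. The 5 genes are among the 12393 that the array names. They were chosen because of that difference, so the difference itself is described here and not tested. All probe sets annotated to them were used, 7 of the 22690 on the array: 2 each for Serpini1 (1416702_at and 1448443_at) and Osbpl1a (1460192_at and 1416823_a_at), and 1 each for Ttc8 (1424410_at), Nbea (1452251_at) and Ly6d (1416930_at). All 7 were among the 14305 probe sets that passed the filter on low values, which asked for a value above the array median in at least 3 specimens.

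All mice were BALB/c.iMycEμ, a strain with a Myc transgene inserted in the immunoglobulin heavy chain locus. They were at least 8 weeks old and received 0.5 ml of pristane, a mineral oil, in the peritoneum, so that no group was untreated and none lacked the transgene. From each oil granuloma, cells positive for methyl green pyronin, a stain for plasma cells, were taken by laser capture and are labelled as nascent tumor cells ("captured cells"), and RNA was also made from undissected sections ("whole granuloma"). In study 2, 3 specimens per day were measured in both tissue types on days 7, 17, 33, 49 and 105. In study 1, an independent cohort, captured cells came from 4, 4, 3, 3 and 1 specimens on days 7, 17, 33, 46 and 104, and whole granuloma from 2, 2, 3 and 1 specimens on days 7, 17, 33 and 104. The 82 arrays were averaged to 53 values of 1 specimen code and tissue type each, and "specimen" stands below for a code; the labels do not say that the codes are separate animals, so p-values measure the spread between these specimens.

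Levels are log2 RMA values as the authors deposited them, on which a difference of 1 is 2-fold. Array medians ranged from 5.309 to 5.641 for the captured arrays of study 2, against 7.113 to 7.335 for its whole granuloma arrays. In study 1 they ranged from 4.973 to 5.111 for captured arrays, against 5.727 to 5.825 for whole granuloma arrays, so levels were compared between tissue types only after quantile normalization over all arrays. The 3-prime minus 5-prime difference of the Gapdh and beta-actin control probe sets, a measure of RNA quality, averaged 4.14 in captured cells against 1.61 in whole granuloma of study 2, and 4.49 in captured cells against 3.19 in whole granuloma of study 1. Plasma cell markers (10 tested) were present in captured cells, with mean levels from 9.43 to 10.34 on day 105 and from 8.63 to 9.19 on day 7 of study 2. Macrophage markers were also detected in captured cells, and plasma cell markers in whole granuloma, as given below, so presence alone does not set the captured cells apart. The studies differed in transcripts of the sex chromosomes. Eif2s3y was at 7 or more in 7 of 25 captured and 4 of 12 whole granuloma arrays of study 1. In study 2 it was so in 0 of 30 captured and 0 of 15 whole granuloma arrays. Within codes, the arrays of 3 of the 33 specimen codes disagreed in these transcripts. The 5 captured arrays of specimen 4687, the only specimen of day 104, had Eif2s3y at 3.38 to 4.64 and Xist at 4.35 to 6.70, while its 3 whole granuloma arrays had Eif2s3y at 7.93 to 8.42 and Xist at 4.29 to 4.49. The 2 captured arrays of code 5 of day 7 of study 1 also disagreed, with Xist at 11.65 and 4.90 and Eif2s3y at 2.83 and 7.70. Those of code 2 of day 49 of study 2 had Xist at 11.22 and 4.06 and Eif2s3y at 2.81 and 4.27, so that 1 of these arrays was low in both.

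The 5 genes belong to different families. Serpini1 encodes neuroserpin, a secreted serine protease inhibitor of tissue plasminogen activator that is known mainly from the nervous system, where it is released from regulated secretory vesicles. Ly6d encodes a small surface protein held by a glycolipid anchor, which in mouse bone marrow marks lymphoid progenitors committed to the B lineage. The other 3 act inside the cell on membranes: Osbpl1a is an oxysterol-binding protein relative found with the small GTPase Rab7 on late endosomes, Nbea (neurobeachin) is a large BEACH domain protein that binds protein kinase A and serves membrane traffic, and Ttc8 is a subunit of the BBSome, a complex that carries membrane proteins to and from cilia. Plasma cells secrete antibody on a large scale, and the granuloma formed around pristane is the tissue in which their tumors arise in these mice.

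On the GRCm38 build, Serpini1 lies on chromosome 3 (75557493 to 75642523), Nbea on chromosome 3 (55625195 to 56183748), Ttc8 on chromosome 12 (98920537 to 98983250) and Ly6d on chromosome 15 (74762056 to 74763567). Serpini1 and Nbea thus share a chromosome but not a neighborhood. The start regions of Serpini1, Nbea and Ttc8, the members with a matched promoter, are printed so that the letters around their starts can be compared. Each runs 5′ to 3′ on the gene's strand from 250 bases before the transcription start in lower case to the first 50 bases after it in capitals, from RefSeq (GRCm38.p6): Serpini1 at chr3:75557243-75557542 on the plus strand, Nbea at chr3:56183652-56183951 on the minus strand and Ttc8 at chr12:98920324-98920623 on the plus strand.
Serpini1: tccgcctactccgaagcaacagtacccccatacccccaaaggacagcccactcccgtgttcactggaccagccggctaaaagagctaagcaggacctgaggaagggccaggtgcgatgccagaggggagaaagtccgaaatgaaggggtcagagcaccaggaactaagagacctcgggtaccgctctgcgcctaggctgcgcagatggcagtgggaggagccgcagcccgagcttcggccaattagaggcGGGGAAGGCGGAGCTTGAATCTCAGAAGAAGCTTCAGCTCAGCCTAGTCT
Nbea: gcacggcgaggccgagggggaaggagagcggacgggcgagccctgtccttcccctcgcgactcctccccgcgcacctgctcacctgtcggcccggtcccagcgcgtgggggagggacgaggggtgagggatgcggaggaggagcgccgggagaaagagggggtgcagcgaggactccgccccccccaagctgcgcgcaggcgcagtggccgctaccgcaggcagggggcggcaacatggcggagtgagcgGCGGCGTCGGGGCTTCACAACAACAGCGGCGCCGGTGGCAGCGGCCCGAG
Ttc8: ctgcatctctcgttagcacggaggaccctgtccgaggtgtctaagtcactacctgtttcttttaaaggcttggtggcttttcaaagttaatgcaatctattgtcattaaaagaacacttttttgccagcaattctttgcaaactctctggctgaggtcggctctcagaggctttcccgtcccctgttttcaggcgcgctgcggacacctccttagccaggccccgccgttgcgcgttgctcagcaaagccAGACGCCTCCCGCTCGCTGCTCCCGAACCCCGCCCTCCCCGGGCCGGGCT
The shares of G and C were 60% for Serpini1, 75% for Nbea and 56.3% for Ttc8, against a median of 52.7% and a middle range of 45.7% to 61.7% (lower to upper quartile) over 32851 promoters of the same length, so that Nbea lay above the upper quartile and the other 2 between the median and the upper quartile. The E-box CACGTG, the same on both strands and a sequence that Myc with Max can bind, was found in none of the 3 windows and in 7.15% of all promoters. TATAAA, searched on both strands (TTTATA on the other), was also found in none of the 3 and in 13.6% of all. These are matches of letters only.

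Serpini1, the secreted inhibitor, had the largest difference between the last and the first day among the members in both tissue types of study 2. In captured cells 1416702_at was at 9.40, 10.44 and 8.31 on day 105, against 5.19, 6.10 and 6.67 on day 7. In whole granuloma it was at 9.94, 12.28 and 9.53 on day 105, against 7.57, 7.03 and 7.29 on day 7. No day 105 specimen overlapped a day 7 specimen in either tissue type, and the mean differences were 3.40 (10.5-fold) in captured cells and 3.29 (9.75-fold) in whole granuloma. Leaving out 1 specimen at a time gave 2.87 to 3.93 and 2.44 to 3.81.

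The day means of Serpini1 1416702_at in study 2 had a second high point at day 33. Captured cells on days 7, 17, 33, 49 and 105 averaged 5.99 ± 0.75, 6.63 ± 0.34, 8.29 ± 0.51, 7.03 ± 0.82 and 9.38 ± 1.06 (SD, n = 3 each). All 3 captured specimens of day 33 (8.71, 7.72 and 8.42) lay above all 3 of day 17 (6.39, 6.48 and 7.02), and so did those of whole granuloma (9.17, 8.39 and 7.67 on day 33, against 7.00, 7.22 and 7.24 on day 17). Day 33 lay above day 17 without overlap for 3 of 7 member probe sets in captured cells (both of Serpini1 and Ly6d), where 15.6% of all tested did, and for 2 of 7 in whole granuloma (Serpini1 1416702_at and Nbea), where 8.05% did. In captured cells, the day 33 specimens at 8.71 and 8.42 were above the lowest of day 105, at 8.31. In captured cells of study 1 the day means of 1416702_at had no such point, at 4.45, 4.99, 5.41, 5.79 and 7.58 on days 7, 17, 33, 46 and 104. In study 2 its specimens of days 33 and 49 overlapped in both tissue types, with captured ones of day 49 at 6.67, 6.45 and 7.96. On 1448443_at the captured specimens of day 33 lay above those of day 49 without overlap, as did 4.33% of all tested. The second probe set, 1448443_at, had smaller differences between day 105 and day 7, 1.84 in captured cells (7.08, 8.53 and 6.4 on day 105, against 5.38, 5.19 and 5.92 on day 7) and 1.41 in whole granuloma (8.57, 10.73 and 8.23 on day 105, against 8.65, 7.18 and 7.48 on day 7). In whole granuloma its days overlapped, because the day 7 specimen at 8.65 was above 2 of the 3 day 105 specimens, and the difference was between 0.63 and 1.88 with 1 specimen left out.

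Ly6d, the B lineage surface protein, was 4.61-fold higher on day 105 than on day 7 in captured cells of study 2 and higher by 2.64 (6.22-fold) in whole granuloma. Captured cells were at 7.81, 9.33 and 9.13 on day 105, against 6.42, 6.52 and 6.71 on day 7. Whole granuloma was at 8.80, 10.56 and 10.43 on day 105, against 7.10, 7.00 and 7.77 on day 7. In both tissue types 1 of the 3 day 105 specimens, code 1, was lower than the other 2. The captured specimens of day 49 were spread most widely, at 6.97, 5.95 and 8.63, and the highest of them was above the lowest of day 105.

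Osbpl1a, the endosomal lipid-binding protein, is encoded on chromosome 18 (12753898 to 12941871, GRCm38), and its probe sets differed in the size of the late difference. In captured cells of study 2 1460192_at was at 9.28, 11.11 and 9.46 on day 105, against 6.37, 6.35 and 7.04 on day 7, a mean difference of 3.36 (10.3-fold). Between these days it was nearly level, averaging 7.13 ± 0.25, 7.14 ± 0.32 and 7.21 ± 0.10 on days 17, 33 and 49 (SD, n = 3 each), and all 3 day 105 specimens lay above all 12 earlier ones. In whole granuloma it was at 9.58, 11.26 and 9.61 on day 105, against 8.95, 8.86 and 8.64 on day 7, a difference of 1.33 (2.52-fold). The difference on 1416823_a_at was 0.55 in captured cells (6.84, 7.99 and 7.18 on day 105, against 7.55, 6.42 and 6.38 on day 7) and 1.05 in whole granuloma. Its captured value turned on 1 specimen: without code 1 of day 7, at 7.55, the difference was 0.94, and over all specimens left out in turn it ran from 0.23 to 0.94. Osbpl1a is known to give long and short proteins, and the files do not pair the probe sets with either form.

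Nbea, the protein kinase A anchor of membrane traffic, was the most even of the members on the last day. In captured cells of study 2 it was at 10.59, 10.41 and 10.80 on day 105, against 8.45, 8.25 and 8.14 on day 7, a difference of 2.33 (5.01-fold). In whole granuloma it was at 11.80, 11.51 and 11.61 on day 105, against 9.38, 8.74 and 8.59 on day 7, a difference of 2.74 (6.68-fold). All 3 day 105 specimens of each tissue type were above all 12 earlier ones, whose highest values were 9.23 in captured cells and 9.90 in whole granuloma. Its day 105 spread was small (SD 0.20 in captured cells and 0.15 in whole granuloma), against 1.06 and 1.48 for Serpini1.

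Ttc8, the BBSome subunit, had a median of 5.53 over the 12 earlier captured specimens of study 2, within the range of the array medians. Captured cells were at 6.68, 8.78 and 7.55 on day 105, against 4.25, 5.02 and 5.69 on day 7, a difference of 2.68 (6.43-fold). Whole granuloma was at 8.12, 10.57 and 9.35 on day 105, against 7.61, 7.60 and 7.64 on day 7, a difference of 1.74 (3.33-fold). All day 105 specimens were above all 12 earlier ones in captured cells (highest 6.23) and in whole granuloma (highest 8.08). In whole granuloma the margin of the lowest, at 8.12, was small.

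**Figure D1:**
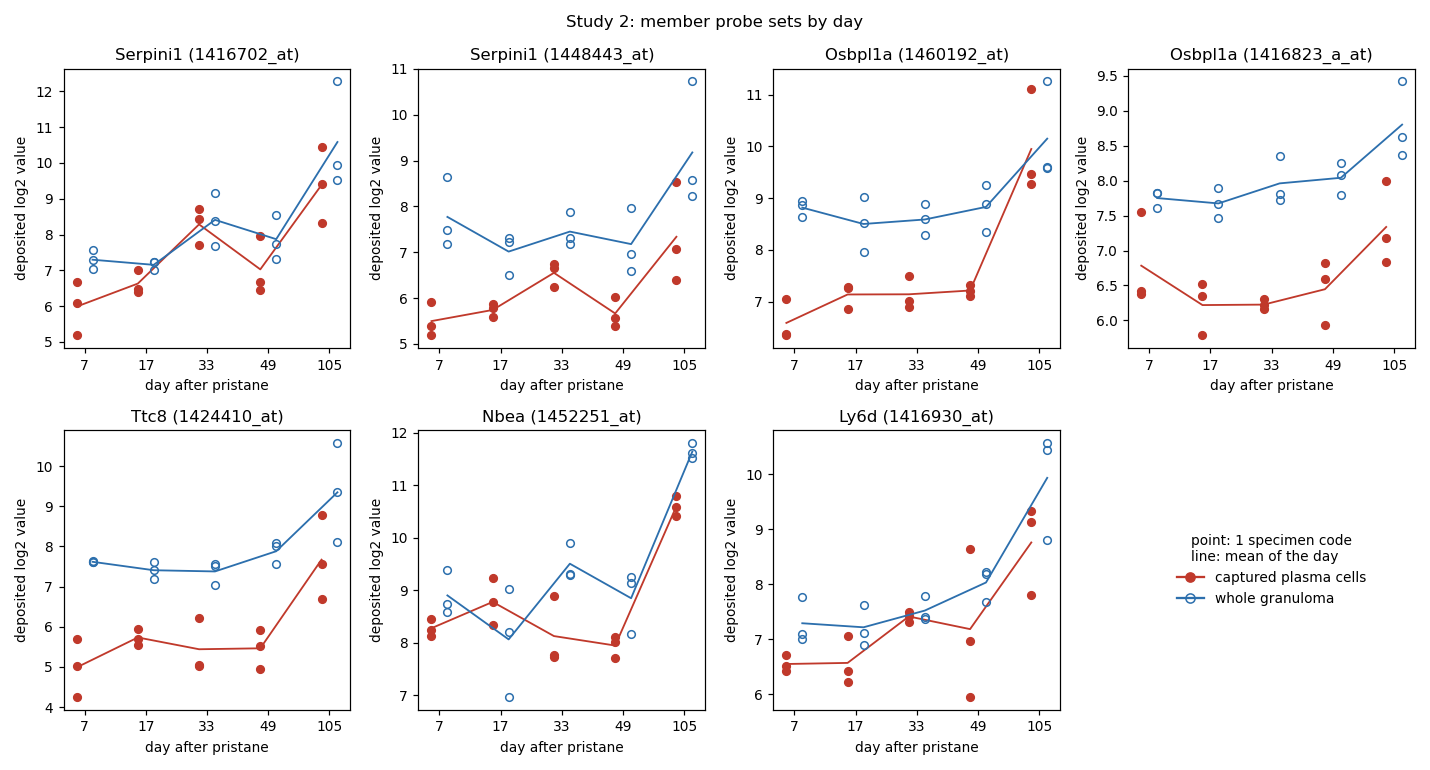
Deposited log2 values (vertical axis, 1 panel per probe set, each with its own range) of study 2 by day after pristane (horizontal axis, days evenly spaced). Filled points are captured plasma cells and open points whole granuloma, 1 point per specimen code, with lines through the day means. Day 105 is the highest mean in all 14 courses. Serpini1 1416702_at has a second high mean at day 33 (8.29 in captured cells), where its specimens overlap those of day 49.

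Over the 7 probe sets, the differences between day 105 and day 7 had a median of 2.33 in captured cells of study 2, where the median of all tested probe sets was 0.07, and 6 of 7 were at least 2-fold higher, against 4.44% of all tested. In whole granuloma the median was 1.74 against 0.01 over all tested, and 7 of 7 were at least 2-fold higher, against 4.51%. These counts restate how the genes were chosen. The largest step was the last one: in captured cells and whole granuloma of study 2 and in captured cells of study 1, the last day exceeded day 46 or 49 by more than any other day exceeded the day before it, for all 7 probe sets. The last step also spans the most days, and it ends on the day on which the members were chosen. In study 2, all 3 day 105 specimens were above all 3 day 49 specimens in captured cells for 6 of 7 probe sets (9.33% of all tested), all except Ly6d, and in whole granuloma for 7 of 7 (14.6%). At day 105, code 2 was the highest of the 3 specimens for 6 of 7 probe sets in captured cells, where it was the highest for 30.7% of all tested, and for 6 of 7 in whole granuloma, where it was the highest for 34.5%. In both tissue types the exception was Nbea. Captured and whole arrays of a code come from the same specimen, so these are not independent counts.

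Levels of cell type markers differed between the days. In whole granuloma of study 2, the mean level of 6 smooth muscle markers was 6.65 to 9.35 on day 105, against 11.89 to 13.08 on day 7, and all 6 fell (median change -4.21, limma, 11.1% of all tested probe sets were lower at an adjusted p under 0.05). In the same comparison, 6 of 10 plasma cell markers rose, where 6.8% of all tested did, among them Tnfrsf13b by 2.75 (adjusted p = 1.3e-05) and Prdm1 by 2.10 (adjusted p = 0.0013), and 3 of 6 adipocyte markers fell. In captured cells of study 2, where 4.17% of tested probe sets rose and 2.94% fell, 1 of 10 plasma cell markers rose (Tnfrsf13b by 1.54, adjusted p = 0.016), and the macrophage marker Cd163 fell by 3.75 (adjusted p = 1.9e-05). In the same captured cells 1 of 8 B cell markers (Vpreb3, 0.72, adjusted p = 0.043) and 1 of 3 epithelial markers (Epcam, 1.93, adjusted p = 0.02) rose. The adipocyte marker Fabp4 (1 of 6, -2.48, adjusted p = 0.0057) and the fibroblast marker Pdgfra (1 of 7, -1.57, adjusted p = 0.04) fell there. Vpreb3 also rose in whole granuloma (1.08, adjusted p = 0.00082). The mean level of 8 macrophage markers in captured cells was 8.01 to 8.58 on day 105, against 8.59 to 9.34 on day 7. Of 9 neuron markers, looked at because Serpini1 and Nbea are known from neurons, 2 were tested and neither passed the threshold in captured cells or whole granuloma of study 2. Of 6 early B lineage markers, looked at beside Ly6d, 2 were tested and neither passed. The RNA quality difference in captured cells of study 2 averaged 3.46 on day 105 and 4.66 on day 7. The part of any of these in the members' values was not tested, and in whole granuloma fewer cells of a type and less RNA per cell cannot be told apart.

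In study 1, the captured cells of day 104 had high levels of all 5 genes. The whole granuloma of the same specimen differed less from day 7 on every probe set, by -0.28 to 1.09. The captured average of specimen 4687, over 5 arrays, was above all 14 earlier captured specimens on 7 of 7 probe sets. The share of all tested probe sets for which this held was not counted, here and in whole granuloma below. Nothing is therefore read from these counts. Serpini1 (1416702_at) was at 7.58 on day 104, against a lowest value of 4.09, a median of 5.01 and a highest of 6.56 over the earlier days. Ly6d was at 9.25 on day 104, against 5.26, 6.29 and 6.95. The difference of Ly6d between day 104 and day 7 was 3.43 (10.8-fold), and 3.25 without code 003 of day 7.

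The membrane traffic genes also had their highest values on day 104 in captured cells of study 1, while their middle days were not in the same order as in study 2. Osbpl1a was at 9.60 on 1460192_at on day 104, against a lowest value of 6.02, a median of 6.38 and a highest of 7.26 over the earlier days, and at 8.09 on 1416823_a_at, against 5.85, 6.12 and 6.61. Nbea was at 10.83, against 6.81, 8.19 and 10.17, and Ttc8 at 6.95, against 4.37, 4.81 and 5.54. The smallest margin over the earlier specimens was that of Serpini1 1448443_at, at 5.41 on day 104 against a highest earlier value of 5.12. The highest earlier value of Nbea belonged to a day 46 specimen that also had the highest earlier values of Serpini1 (6.56 on 1416702_at) and Ttc8 (5.54), and whose RNA quality difference was 3.03, the lowest of the captured specimens of study 1. The differences between day 104 and day 7 were 3.13 and 1.08 for Serpini1, 3.33 and 2.16 for Osbpl1a, 2.44 for Ttc8 and 3.21 for Nbea. Their median with Ly6d was 3.13, against 0.02 over all tested probe sets, and 7 of 7 were at least 2-fold higher, against 2.88% of all tested. Without code 5 of day 7, whose arrays disagreed in sex-linked transcripts, the differences were between 1.09 (Serpini1 1448443_at) and 3.48 (Ly6d). All of them rest on 1 specimen of day 104.

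In whole granuloma of study 1, specimen 4687 was at 6.38 for Serpini1 on 1416702_at, against 5.78 and 5.42 on day 7, and at 7.37 for Osbpl1a on 1460192_at, against 6.97 and 7.88 on day 7. Ttc8 was at 5.96, against 5.98 and 6.50 on day 7, and Nbea at 9.75, against 9.00 and 8.32. Ly6d alone, at 6.55, was above all 7 earlier specimens, whose highest was 5.99. The differences from day 7 ran from -0.28 (Ttc8) to 1.09 (Nbea), and 1 of 7 was at least 2-fold, against 1.41% of all tested. The single arrays of the specimen did not overlap between tissue types for Ly6d (8.78, 9.77, 9.35, 9.71 and 8.64 captured, against 7.03, 6.34 and 6.28 whole) or for Osbpl1a 1460192_at (9.53, 9.44, 10.10, 9.49 and 9.45 captured, against 7.28, 7.23 and 7.58 whole). Since its captured and whole arrays also differed in Eif2s3y, whether they came from 1 animal is not settled here. The adipocyte marker Fabp4 (-3.16, adjusted p = 0.041, limma) and the macrophage marker Cd163 (-3.0, adjusted p = 0.031) were lower in captured cells of study 1 on day 104 than on day 7, as were 0.426% of tested probe sets. No plasma cell marker of 10 passed. The mean level of the plasma cell markers was 9.09 in captured cells of day 104, against 8.46 to 8.64 on day 7, and 9.41 in whole granuloma of day 104, against 8.36 to 8.53. Their part in the result was not tested.

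**Figure D2:**
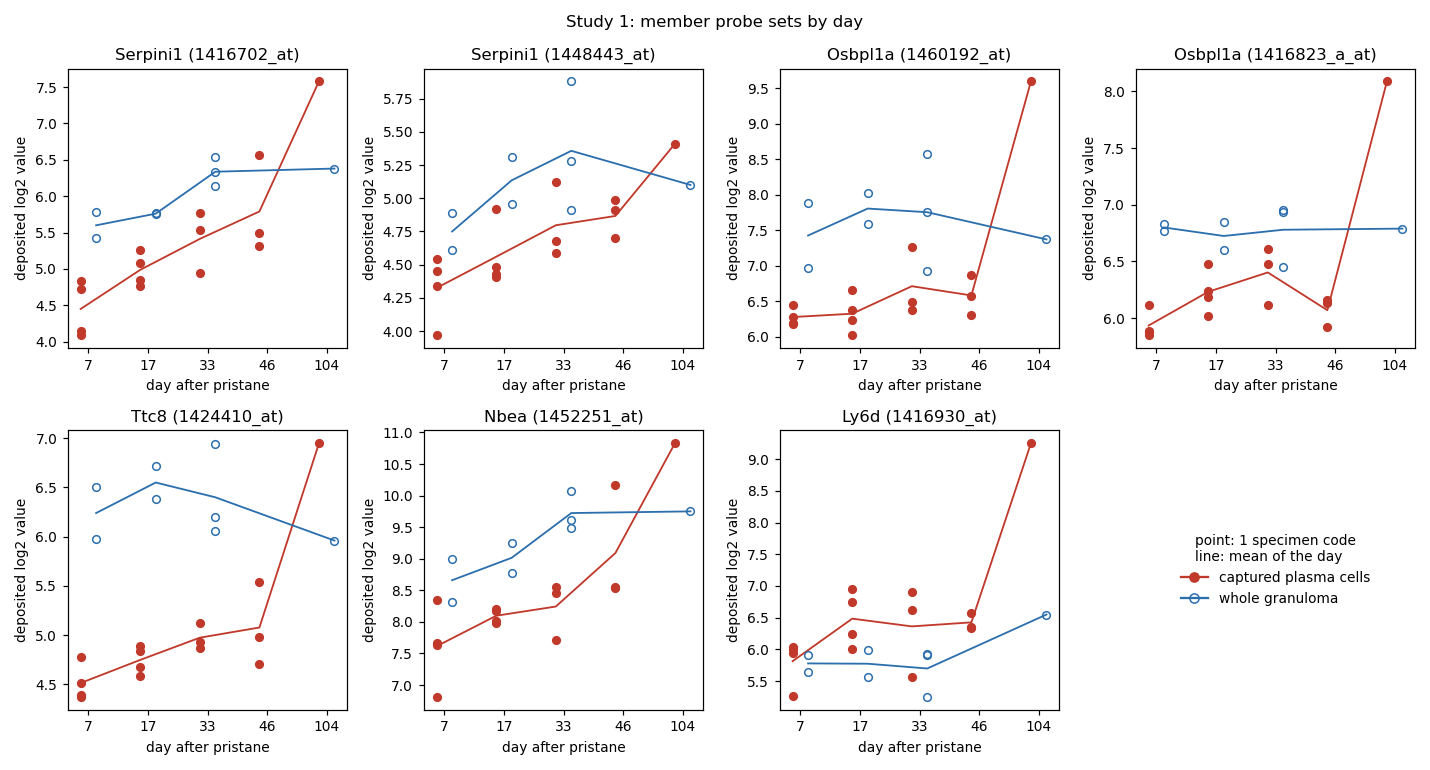
Deposited log2 values (vertical axis, 1 panel per probe set, each with its own range) of study 1 by day after pristane (horizontal axis, days evenly spaced). Filled points are captured plasma cells and open points whole granuloma, 1 point per specimen code, with lines through the day means and no whole granuloma on day 46. The single captured specimen of day 104 is above all 14 earlier ones in each panel, and its whole granuloma is not, except for Ly6d (6.55).

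Whether the members are more abundant in captured cells than in whole granuloma was tested on the middle days, which played no part in choosing them. Whole granuloma is undissected and includes plasma cells, so this does not compare plasma cells with the tissue around them. In study 2, over days 17, 33 and 49, 4 of 7 probe sets were higher in captured cells than in whole granuloma and none was lower (limma on quantile-normalized values, Benjamini-Hochberg over all tested probe sets), while 30.7% of all tested were higher and 32.8% lower. Serpini1 averaged 7.52 in captured cells and 6.26 in whole granuloma on 1416702_at (difference 1.26, SE 0.27, adjusted p = 0.00013), Nbea 8.55 and 7.32 (1.23, SE 0.23, adjusted p = 1.7e-05) and Ly6d 7.22 and 6.03 (1.19, SE 0.25, adjusted p = 6.3e-05). Each of these 3 was higher in captured cells in 8 of 9 specimens, as were Serpini1 1448443_at and Osbpl1a 1460192_at. Each of the 3 keeps its call with code 2 of day 49 left out (1.45, 1.13 and 1.46). Serpini1 on 1448443_at also passed (0.56, SE 0.24, adjusted p = 0.037), but not with 1 or another of 5 of the 9 specimens left out. Osbpl1a did not pass on either probe set (0.28, with a 95% interval from -0.15 to 0.72, and 0.31, from -0.05 to 0.66), nor did Ttc8 (-0.18, from -0.64 to 0.28).

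These tissue differences depend on the scaling. On the values as deposited, where the median of all tested probe sets shifts by -1.69, Serpini1, Nbea, Ly6d and both probe sets of Osbpl1a all turn to lower in captured cells, with differences of -0.50 (Serpini1 1416702_at), -0.52 (Nbea) and -0.53 (Ly6d), each above that shift, and the share of higher probe sets among those called is 0.79% there, against 48.4% after quantile normalization and 61.9% after median centring. With the RNA quality difference as a covariate, Nbea alone keeps its call, and Serpini1 (1.42, adjusted p = 0.075) and Ly6d (0.07, adjusted p = 0.93) do not pass.

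In study 1, over days 17 and 33, Ly6d was again higher in captured cells, at 7.08 against 5.64 in whole granuloma (1.42, SE 0.32, adjusted p = 3e-04, limma, higher in 3 of 3 specimens with both tissue types), where 27.5% of all tested probe sets were higher. Ttc8 was lower, at 5.46 in captured cells against 6.33 in whole granuloma (-0.87, SE 0.30, adjusted p = 0.013), where 25.5% of all tested were lower; without code 12 of day 17 or code 5 of day 33 it no longer passed. The other 5 probe sets did not pass, among them Serpini1 1416702_at (-0.12, 95% interval from -0.84 to 0.60) and Nbea (-0.60, from -1.21 to 0.00). On the values as deposited, with a median shift of -0.62, Ly6d kept its direction (0.67, adjusted p = 0.053). With the RNA quality difference as a covariate neither Ly6d (0.66, adjusted p = 0.26) nor Ttc8 (-0.66, adjusted p = 0.25) passed.

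The difference between the studies was tested on their shared days 17 and 33 as study 2 minus study 1 of the tissue difference. Nbea (1.85, SE 0.41, adjusted p = 0.00053) and Serpini1 on 1416702_at (1.49, SE 0.49, adjusted p = 0.015) were more strongly shifted towards captured cells in study 2, as were 18.7% of all tested probe sets. For Ly6d the difference between studies was -0.05, with a 95% interval from -0.94 to 0.84, so that the interval admits differences of nearly 2-fold either way. Neither call held on the values as deposited (Serpini1 0.53, adjusted p = 0.34, and Nbea 0.88, adjusted p = 0.05), where the median of all tested probe sets shifts by -0.93. The studies also differed in sex-linked transcripts, as given above, and the part of this was not tested.

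**Figure D3:**
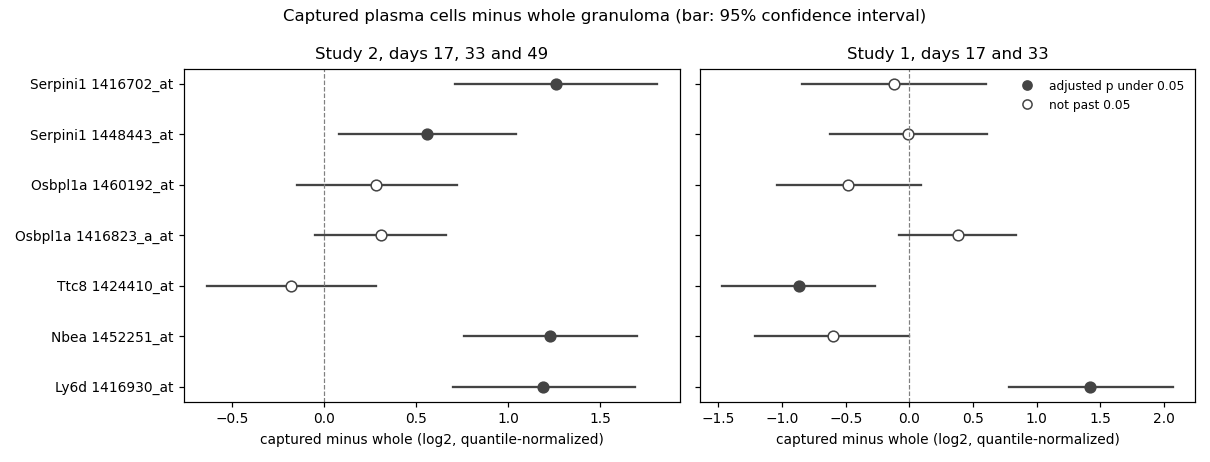
Captured minus whole on quantile-normalized log2 values (horizontal axis) for each probe set (rows), over days 17, 33 and 49 of study 2 (left) and days 17 and 33 of study 1 (right), with 95% confidence intervals. Filled points passed an adjusted p of 0.05 (limma). In study 2 Serpini1, Nbea and Ly6d were higher in captured cells after this scaling. On the values as deposited they turned to lower, at -0.50 to -0.53 and, for Serpini1 1448443_at, -1.23. These values lay above the shift of -1.69 in the median of all tested probe sets. In study 1 Ly6d was higher and Ttc8 lower.

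On the last day 1 of the 2 probe sets of Osbpl1a had a tissue difference outside its earlier range in every specimen. After quantile normalization, 1460192_at was 1.23 to 1.27 higher in captured cells than in whole granuloma in the 3 specimens of day 105, while the 12 earlier specimens of study 2 lay between -0.55 and 1.02. In specimen 4687 of study 1 the difference was 2.95, while the earlier specimens with both tissue types lay between -1.54 and 0.46. The second probe set, 1416823_a_at, was at 0.20 to 0.30 on day 105, inside its range of -0.54 to 1.84 over the earlier days of study 2. Other members were not apart in this way in study 2: on day 105 Serpini1 1416702_at was between -0.63 and 0.97, Nbea between 0.01 and 0.27, Ly6d between 0.07 and 0.74 and Ttc8 between -0.22 and 0.38. In specimen 4687 they were at 2.01, 1.48, 3.45 and 1.76. These values involve the last day and carry no test.

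**Figure D4:**
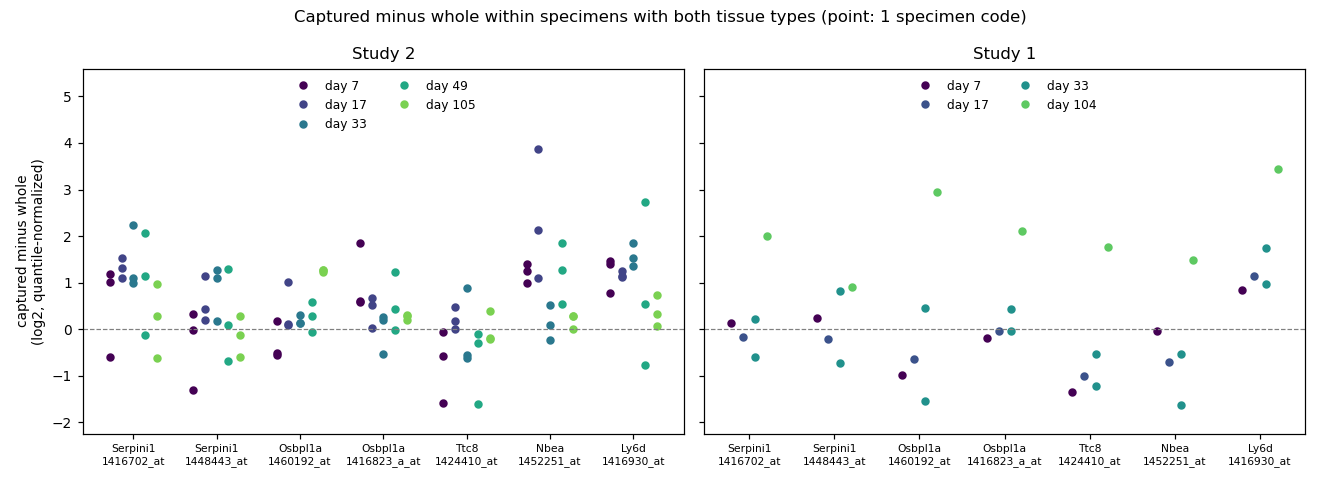
Captured minus whole on quantile-normalized log2 values (vertical axis) within specimens that have both tissue types, by probe set (horizontal axis), for study 2 (left) and study 1 (right), 1 point per specimen code, shaded by day. Osbpl1a 1460192_at is at 1.23 to 1.27 in the 3 specimens of day 105, and all 7 probe sets have their highest study 1 point on day 104.

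Between day 17 and the day 46 or 49 sections no member passed the threshold. In captured cells of study 2, day 49 minus day 17 ranged from -0.83 (Nbea) to 0.61 (Ly6d), and 0 of 7 passed (limma), where 10.7% of all tested probe sets did, with 1 member at an unadjusted p under 0.05. The 1537 calls behind that share were 173 without code 2 of day 49, 131 with the specimen numbers as a replicate block and 40 with the RNA quality covariate. In whole granuloma of study 2 the differences ran from 0.16 to 0.81 and 0 of 14305 probe sets passed (0%), with 466 of them and no member at an unadjusted p under 0.05. In captured cells of study 1, day 46 minus day 17 was 1.00 for Nbea (SE 0.38, 95% interval from 0.23 to 1.76, adjusted p = 0.57) and 0.80 for Serpini1 1416702_at, and 5 probe sets passed (0.035%), none a member. The interaction of tissue type with the day 49 minus day 17 difference passed for no probe set (0%), with 2123 at an unadjusted p under 0.05. Among these was Nbea (-1.61, SE 0.54, adjusted p = 0.19), at -0.83 in captured cells and 0.78 in whole granuloma. The 95% intervals of several members included changes of over 2-fold (Serpini1 1416702_at from -0.59 to 1.39 in captured cells of study 2), so that changes of that size are not excluded.

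Related genes were counted against the share of all tested probe sets that passed in the same comparison. On day 105 over day 7 of study 2, 4.17% rose and 2.94% fell in captured cells, and 6.8% rose and 11.1% fell in whole granuloma. On day 104 over day 7 in captured cells of study 1, 0.37% rose and 0.426% fell. Nothing is read from counts of 0 or 1 in lists of this size. Of 13 tested genes of the serpin family and plasminogen system other than Serpini1, 0 rose on day 105 over day 7 in captured cells of study 2 (median 0.10, against 0.07 over all tested), and in whole granuloma 0 rose and 6 fell (median -0.96, against 0.01), led by Serpinb2 (-2.60, adjusted p = 0.028), Serpinb1a (-1.60, adjusted p = 0.002) and Serpinf1 (-1.45, adjusted p = 0.028). Serpinb2 inhibits plasminogen activators, Serpinb1a neutrophil proteases, and Serpinf1 is a secreted serpin without inhibitor activity. In whole granuloma, these moved in the same comparison as the smooth muscle, adipocyte and macrophage markers above, and the part of those was not tested.

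Of 11 tested oxysterol-binding proteins and partners, 0 passed in captured cells of either study. In whole granuloma of study 2, 2 rose, Npc1, the late endosomal cholesterol exporter (1.25, adjusted p = 0.025), and Osbp, the founding member of the family (0.99, adjusted p = 0.0097), and Osbpl5 fell (-1.62, adjusted p = 0.00022). Of 12 tested genes of the BBSome, its chaperonins and partners, Bbs2, another subunit of the complex, rose on day 104 in captured cells of study 1 (1.5, adjusted p = 0.0046), where 0.37% of all tested rose, none passed in captured cells of study 2, and Ift57 (-1.0, adjusted p = 0.0018) and Ift74 (-0.99, adjusted p = 0.018), both of the ciliary transport particle, fell in whole granuloma of study 2. Of 8 tested BEACH proteins and protein kinase A subunits, Wdfy3, a BEACH protein of selective autophagy, fell in captured cells of study 2 (-1.87, adjusted p = 0.0034) and no other passed in the 3 comparisons. None of 5 tested Ly6 family genes passed in any of the 3 comparisons, and their median differences were 0.11 in captured cells and -0.41 in whole granuloma of study 2.

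Of 5 tested genes that neighbor the members on their chromosomes, Dclk1, a kinase near Nbea, fell in captured cells (-1.92, adjusted p = 6e-04) and in whole granuloma (-1.07, adjusted p = 0.03) of study 2, opposite in sign to Nbea's difference of 2.33 and 2.74. The other 4 neighbors passed in none of the 3 comparisons. All p-values of related genes are from the same limma fit over all 14305 probe sets.

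The tissue difference of these families on the middle days was as follows. In study 2, where 30.7% of all tested probe sets were higher in captured cells and 32.8% lower, 0 of 13 serpin and plasminogen genes were higher and 10 were lower, among them Serpinh1, the collagen chaperone (-1.88), and Plaur, the urokinase receptor (-1.73), while Serpini1 was higher. In study 1, where 27.5% of all tested were higher and 25.5% lower, 0 were higher and 8 lower. Of the 12 BBSome genes, 5 were higher and 1 lower in captured cells of study 2, led by Ift27 (1.83) and Lztfl1 (1.74), a regulator of BBSome entry to cilia, and 2 were higher and 3 lower in study 1, where Ift27 was again higher (1.17). Nothing is read from the BBSome counts. Rab7, the partner of Osbpl1a on late endosomes, was lower in captured cells in both studies (-0.99 in study 2, adjusted p = 1.6e-08, and -1.20 in study 1, adjusted p = 1.8e-07). In study 2 the values as deposited shift the median by -1.69, so these directions hold after quantile normalization.

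Across the 53 specimen values, with the mean of each study and tissue type taken out, probe sets of different members were correlated with r between 0.54 and 0.90 (19 pairs, median 0.68). Much of this came from the last day, since without it, over 45 values, r ran from -0.26 to 0.59 with a median of 0.21. The values share specimens and arrays, the members were chosen on the last day, and r is given as a description. The closest pair was Osbpl1a (1460192_at) with Ttc8, at 0.90 and, without the last day, 0.55. The 2 probe sets of Osbpl1a had r = 0.74 and, without the last day, 0.04, and those of Serpini1 0.82 and 0.51.

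The 3 genes most like each member over the 53 values were named by the highest r. Their r without the last day used the means over all days, which were not taken anew. For Serpini1 they were Gdap2 (0.88), Klra17 (0.87) and Rabggta (0.86), and Klra17, a lectin-like receptor gene, kept 0.86 without the last day. For Ly6d they were Tnfsf10 (0.85), the death ligand TRAIL, Cyp27a1 (0.84), the sterol 27-hydroxylase, and Spin1 (0.83), and without the last day these were at 0.70, 0.57 and 0.68. Extl2, a glycosyltransferase of the exostosin family, was among the 3 most similar genes of Osbpl1a (0.81), Ttc8 (0.81) and Nbea (0.87), and without the last day its r was 0.34, 0.39 and 0.63. Nbea was also close to Man1a2 (0.86), an N-glycan mannosidase, and Entpd1 (0.85), the ectonucleotidase CD39, with 0.71 and 0.64 without the last day. The last genes of the lists were Dclre1b for Osbpl1a (0.79) and Baz2b for Ttc8 (0.80).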

How the data were processed

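Gene expression in captured plasma cells and whole granuloma was measured on 82 mouse oligonucleotide arrays after linear amplification of the RNA, per the labels' protocols. For 22690 probe sets the authors deposited log2 values. Per the submitters' processing notes these were made by RMA with Partek, of which no version is given in the sources used here. Values were not logged again, and the number of arrays limits the precision.

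The members and gene lists were chosen with earlier results of these data known. All probe sets of the 5 genes are named, with up to 3 called genes of a list and the 3 most similar genes per member; gene lists were read on the brightest probe set of each gene with 1 symbol. Arrays that share a specimen code and a tissue type were averaged (53 values, 33 codes, 20 with both tissue types). In study 1, an array of day 33 with no code in its title counted as its own specimen, and code 003 of day 7 was kept apart from code 3. Letters in titles were left out of the code.

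One model over 19 groups was fitted by lmFit and eBayes (limma 3.58.1, R 4.3.3), leaving 34 residual degrees of freedom. The specimen code entered as a random block (duplicateCorrelation, 0.111 on deposited and 0.103 on quantile-normalized values), with Benjamini-Hochberg adjustment over the 14305 probe sets tested and a threshold of 0.05. Day 104 of study 1 has 1 specimen per tissue type, and its spread is that of the pooled fit. Days were compared on deposited values and tissue types on quantile-normalized values. Comparisons that involve the last day or day 7 are tested for related genes only. The fit was tested on simulated data. Alternatives were other scalings, no filter on low values, no specimen block, the specimen number as a replicate block, letters as separate specimens, title date as a block, the 3-prime to 5-prime difference as a covariate and leaving out each specimen. Specimen numbers do not pair days: deviations of equal numbers on different days correlated between -0.54 and 0.21. No genome sequence was read; promoters were copied from a RefSeq table, which matched 3 of the 5 genes used here.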

Additional observations from a re-analysis of the deposited data

Results flagged for a closer look

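In 3 of the 14 combinations of probe set and group examined (the 2 groups of study 1 with 4 specimens and 7 probe sets), 1 specimen lay far from the other 3. These were Osbpl1a 1416823_a_at in captured cells of day 7, where code 5 was at 6.12 and the others at 5.85 to 5.89, Ly6d in captured cells of day 7, where code 003 was at 5.26 and the others at 5.95 to 6.04, and Serpini1 1448443_at in captured cells of day 17, where code 4 was at 4.92 and the others at 4.41 to 4.48. Chance marks about 1 in 20 such groups. Without the marked specimens of day 7 the difference between day 104 and day 7 was 2.22 for Osbpl1a 1416823_a_at and 3.25 for Ly6d, against 2.16 and 3.43 with all specimens.

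The tissue difference of 2 probe sets was not the same in the studies. On days 17 and 33, captured minus whole was larger in study 2 than in study 1 by 1.49 for Serpini1 1416702_at (SE 0.49, adjusted p = 0.015, limma) and by 1.85 for Nbea (SE 0.41, adjusted p = 0.00053). At these days 18.7% of all tested probe sets differed in this direction between the studies.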

How the results depend on the processing

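Results are limited by 1 to 4 specimens per group, by dim probe sets of Serpini1 and Ttc8 in captured cells, and by the scale on which tissue types are compared. On the values as deposited, captured minus whole turned to -0.50 and -1.23 for Serpini1, -1.48 and -1.59 for Osbpl1a, -0.52 for Nbea and -0.53 for Ly6d in study 2, and to -0.45 for Osbpl1a 1416823_a_at in study 1; on that scale the captured arrays have lower medians. Of called probe sets, the share higher was 10.9% as deposited, 56.1% with median centring and 51.9% as reported for captured minus whole of study 1, 4.84%, 62.2% and 50% for the study difference, and 52.5% with median centring against 37.9% as reported for day 105 minus day 7 in whole granuloma. The cause of the changes below was not tested. Of the 7 member results that turned to lower as deposited, Serpini1 1416702_at of study 2 did not pass there (adjusted p = 0.073, limma). The others passed as lower, and those of Osbpl1a had no call as reported. Besides these 7, 3 member results lost and 6 gained a call as deposited (Ttc8 in study 2 at -2.01). With the RNA quality covariate 5 member results lost a call. With median centring 2 gained one (study difference of Osbpl1a 1460192_at, 1.02, and Ttc8, 0.98), and with letters as separate specimens 1 did.

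The count of called probe sets for the study difference was 8907 as deposited and 5355 as reported. For day 46 minus day 17 in captured cells of study 1 it was 3 with median centring, 22 with letters as separate specimens, 0 with the covariate and 0 with title date as a block, against 5. For the difference between tissue types in the day 49 minus day 17 change it was 12 with letters and 1 with the covariate, against 0. The covariate gave 5767 for captured minus whole of study 2, against 9090. Day 49 minus day 17 in captured cells of study 2 gave 40 with the covariate and 131 with the specimen number as a replicate block, against 1537, of which 13.5% were higher (27.4% after quantile normalization). Day 105 minus day 7 gave 526 with that replicate block in captured cells, against 1018. For day 104 minus day 7 in captured cells of study 1, title date as a block gave 2738, against 114; it counts arrays of 1 specimen as separate.

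The replicate block changed 1 member call: Serpini1 1448443_at (0.56) had an adjusted p of 0.1 with the block and 0.053 with no specimen block. Leaving out 1 specimen gave 8461 to 9621 calls for captured minus whole in study 2, 5839 to 7478 in study 1, 4364 to 5281 for the study difference, 173 to 3329 for day 49 minus day 17 in captured cells (173 without code 2 of day 49) and 0 to 61 in whole granuloma, 0 to 3 for day 46 minus day 17, 0 to 892 for the difference of changes, 204 to 1497 and 1269 to 3317 for day 105 minus day 7 in captured cells and whole granuloma, and 64 to 144 for day 104 minus day 7. In this way Serpini1 1448443_at lost its call in study 2 in 5 of 9 cases, Ttc8 in study 1 in 2 of 9, and Serpini1 1416702_at its study difference without code 3 of day 33 of study 2.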
